A study of Mus musculus with 9 samples.

Results

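Expression of 9 genes used as markers of monocytes and interstitial macrophages was followed in mouse lung: Ly6c2, Vcan, Plac8, F13a1, Csf1r, Cx3cr1, Fcgr1, Adgre1 and Ms4a7. They were taken by symbol from a table of 52381 genes, and each symbol had a single row. The 9 libraries of RNA sequencing come from the lungs of separate mice whose lungs were acutely injured with lipopolysaccharide (LPS), the endotoxin of Gram-negative bacteria. In the group called TMAO, 5 injured mice also received trimethylamine N-oxide, a metabolite formed from gut bacterial products. The group called LPS-ALI holds 4 mice with the injury and no TMAO. Both groups carry the LPS injury, and uninjured mice are not analysed here. The sources used here do not give the strain and age of the mice or the dose, route and time of either agent. The groups are compared for the effect of TMAO in LPS-injured lungs. Which agent came first is not given either.

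Monocytes are made in the bone marrow and circulate in the blood. Classical monocytes carry the surface protein Ly6C, enter inflamed tissue along chemokine gradients and can mature there into macrophages, while patrolling (non-classical) monocytes carry little Ly6C and much Cx3cr1. Interstitial macrophages live in the lung connective tissue around vessels and airways, apart from the alveolar macrophages of the airspace. In bulk lung RNA, fewer cells of a type and less RNA per cell cannot be told apart. Several of the genes are also used by other cells: Vcan by fibroblasts, F13a1 by platelets, Plac8 by other leukocytes, Cx3cr1 by natural killer cells and Adgre1 by alveolar macrophages and eosinophils.

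RefSeq promoter windows on GRCm38.p6, from 250 bases before to 50 bases after a start site, were at hand for 7 of the 9 genes, in 11 windows. They were searched on both strands for GAGGAAGT, letters bound by PU.1, the transcription factor that myeloid cells need. The search letters were chosen with the windows in view. The letters occurred in 3 of the 11 windows and in 3.2% of all 32851 windows in the table. Those windows belong to Ly6c2, in both of its overlapping windows, and to F13a1. The C/EBP letters TTGCNNAA, also on both strands, occurred in a single window, of Plac8, and in 10.8% of all windows. A match is a description of the letters and not a binding site. The windows below are written 5′ to 3′ on the gene's own strand, with GAGGAAGT in capitals. Ly6c2 (chr15:75111922-75112221) and its neighbour Ly6c1 (chr15:75048614-75048913) are shown because the genes are close copies that different cells use. F13a1 (chr13:37049164-37049463) is shown as the other gene with the letters, and Vcan (chr13:89742463-89742762) as the only one of the 9 whose groups did not overlap. All 4 genes lie on the minus strand.
Ly6c2: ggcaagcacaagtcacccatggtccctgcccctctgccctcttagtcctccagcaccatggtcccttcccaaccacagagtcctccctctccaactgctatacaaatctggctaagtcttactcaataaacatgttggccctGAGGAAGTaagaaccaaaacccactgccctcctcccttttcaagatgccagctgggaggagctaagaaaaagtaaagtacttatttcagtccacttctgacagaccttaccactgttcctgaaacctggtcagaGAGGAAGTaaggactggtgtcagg
Ly6c1: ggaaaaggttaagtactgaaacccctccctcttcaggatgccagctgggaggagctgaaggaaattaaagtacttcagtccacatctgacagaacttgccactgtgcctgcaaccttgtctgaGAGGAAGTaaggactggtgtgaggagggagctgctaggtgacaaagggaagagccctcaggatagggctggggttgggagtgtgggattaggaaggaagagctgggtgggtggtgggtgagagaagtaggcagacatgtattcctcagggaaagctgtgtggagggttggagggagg
F13a1: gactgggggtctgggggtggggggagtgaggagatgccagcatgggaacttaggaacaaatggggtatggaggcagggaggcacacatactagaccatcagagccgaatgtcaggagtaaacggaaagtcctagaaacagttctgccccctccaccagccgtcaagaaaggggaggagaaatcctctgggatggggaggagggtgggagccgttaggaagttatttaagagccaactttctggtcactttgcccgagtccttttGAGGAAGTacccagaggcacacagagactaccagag
Vcan: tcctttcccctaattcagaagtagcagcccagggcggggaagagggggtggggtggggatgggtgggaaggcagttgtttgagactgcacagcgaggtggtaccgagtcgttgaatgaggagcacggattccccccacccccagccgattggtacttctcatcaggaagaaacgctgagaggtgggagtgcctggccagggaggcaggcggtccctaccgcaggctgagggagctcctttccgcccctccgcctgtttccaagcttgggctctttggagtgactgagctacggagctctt
The Ly6c2 and Ly6c1 windows share a run of 22 bases that includes the capitals. In Ly6c2 the letters begin 108 bases before and 26 bases after the start of its first window, and in F13a1 they begin 14 bases after the start.

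The values are FPKM, fragments scaled by gene length and by the fragments of the library, so levels can be set beside each other between genes. Read totals are not given, and counting intervals cannot be computed. A library held 8846 to 12239 genes at FPKM of at least 1, and mitochondrial genes took 33.4% to 52.2% of the FPKM. The lung label was checked on alveolar type 2 markers: Sftpc, the surfactant protein C gene, had 3842 to 7333 FPKM in TMAO and 709.7 to 9809 in LPS-ALI lungs, although the wording of the extraction protocol names platelets. A single library of each group stood apart. TMAO replicate 5 held the fewest genes at that level (the other 8 libraries held 11158 or more), and LPS-ALI replicate 4 had the lowest Sftpc. LPS-ALI replicate 4 was also lowest for the endothelial gene Tek (0.66 FPKM) and the fibroblast gene Col1a1 (0.74 FPKM). It was highest for the endothelial gene Cldn5 (254.6 FPKM), the fibroblast gene Dcn (136.8 FPKM) and Lyve1 (656.2 FPKM). Lyve1 is counted below among the further interstitial macrophage genes but not named there. What sets LPS-ALI replicate 4 apart was not tested. Codes that start with X belong to LPS-ALI replicates 3 and 4, and codes that start with B to all TMAO libraries and the remaining LPS-ALI ones. The sources used here do not say what the letter stands for.

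Across the 9 libraries the gene levels spanned a wide range. Plac8 was the highest with a mean of 166.7 FPKM, followed by Ly6c2 at 34.3 FPKM. Csf1r and Adgre1 averaged 6.22 and 6.08 FPKM and were not separable within their spread. Fcgr1, F13a1, Vcan and Ms4a7 followed at 3.29, 2.51, 1.79 and 1.48 FPKM, neighbours whose single values overlapped. Cx3cr1 was the lowest at 0.446 FPKM, below 1 in all libraries.

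TMAO lungs had lower mean levels of the classical monocyte genes Ly6c2, Vcan, Plac8 and F13a1 and of the Fc receptor gene Fcgr1, with TMAO means at 0.306 to 0.592 of the LPS-ALI means. The macrophage genes Csf1r, Adgre1 and Ms4a7 and the fractalkine receptor gene Cx3cr1 had TMAO means at 0.942 to 1.27 of the LPS-ALI means. No member passed an adjusted p of 0.05. The test was limma on log2(FPKM + 1) across the 11817 genes that reached 1 FPKM in 4 or more libraries, with Benjamini-Hochberg adjustment. The filter kept 8 of the 9 genes and dropped Cx3cr1. Vcan reached it in all 4 LPS-ALI but only 3 TMAO libraries. Of all tested genes 0% passed, and every member's limma adjusted p was 0.998. At an unadjusted limma p under 0.05, 3 of the 8 tested members were lower in TMAO (Vcan, Ly6c2 and Fcgr1) and 0 higher, against 2.93% of all tested genes lower, 0.423% higher and 3.35% in either direction. The members' count was 1 of 8, Vcan alone, under median-of-ratios scaling, with the X-coded pair dropped, and with LPS-ALI replicate 4 or TMAO replicate 1 dropped alone. The log2 difference was below 0 for 7 of the 8 tested members and for 72.1% of all tested genes. The median tested gene was itself shifted by -0.17 log2 units, and differences relative to it are called relative below. The median log2 difference of the 8 tested members was -0.68, or -0.51 relative. Dropping LPS-ALI replicate 4 gave a relative median of -0.33, and dropping the X-coded pair -0.13. The split between the genes also moved with these libraries. Without LPS-ALI replicate 4 the relative difference was -0.27 for Csf1r and -0.24 for Plac8. Without the X-coded pair it was 0.12 for F13a1, -0.07 for Csf1r and -0.08 for Adgre1. Vcan, Ly6c2 and Fcgr1 stayed at -0.39 or below in either case. For Cx3cr1 the medians were 0.37 FPKM in TMAO and 0.565 FPKM in LPS-ALI lungs, whose mean includes 0.03 FPKM in LPS-ALI replicate 4.

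**Figure D1:**
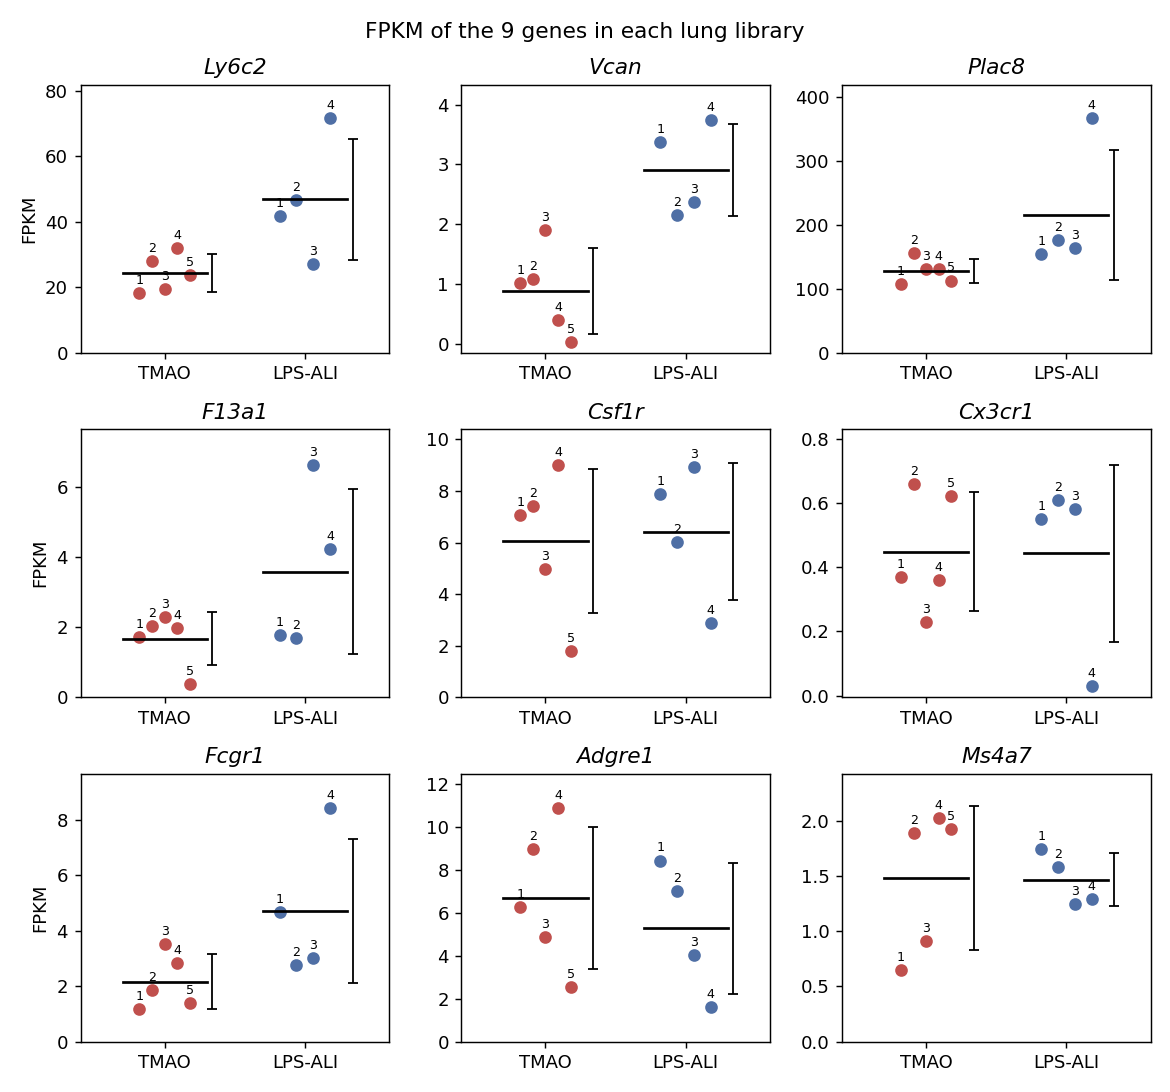
FPKM of each of the 9 genes in every library, TMAO at left and LPS-ALI at right; points are mice with their replicate number, the bar is the group mean and the error bar its SD. All 5 TMAO values of Vcan lie below the lowest LPS-ALI value of 2.15 FPKM, while LPS-ALI replicate 4 is the highest for Ly6c2, Vcan, Plac8 and Fcgr1 and the lowest for Cx3cr1 and Adgre1.

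Ly6c2 encodes the GPI-anchored Ly6C antigen by which mouse classical monocytes are sorted. The gene (ENSMUSG00000022584) lies on chromosome 15 from 75108158 to 75111970 of GRCm38. Ly6c2 had 18.3, 28.1, 19.3, 32.1 and 23.8 FPKM in TMAO replicates 1 to 5, against 41.9, 46.8, 27.1 and 71.7 FPKM in LPS-ALI replicates 1 to 4. LPS-ALI replicate 3 lay among the TMAO values, and the other LPS-ALI lungs lay above all of them. The means were 24.3 ± 5.84 FPKM in TMAO (SD, n = 5) and 46.9 ± 18.6 FPKM in LPS-ALI lungs (SD, n = 4). The Ly6c2 log2 difference was -0.87 ± 0.35 (SE), or -0.70 relative, with an unadjusted limma p of 0.0254 and an exact two-sided permutation p of 0.0397. Its unadjusted limma p was above 0.05 without LPS-ALI replicate 4 (relative difference -0.51), LPS-ALI replicate 2, TMAO replicate 1 or TMAO replicate 3, each left out alone. The unadjusted call was lost too under median-of-ratios scaling (relative difference -0.63) and with both X-coded libraries dropped (-0.65). When libraries were weighted by their scatter, Ly6c2 passed with a limma adjusted p of 0.0472; its adjusted p ran from 0.0472 to 1 over the alternatives. Those weights gave LPS-ALI replicate 2 a weight of 5.03 and TMAO replicate 5 a weight of 0.0879.

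Ly6c1, the close neighbour of Ly6c2, is expressed mostly by endothelial cells. Of all 50-base windows of annotated Ly6c2 transcripts, 14.4% also occurred in transcripts of another gene, nearly all of them of Ly6c1, so reads could be split between the pair. Ly6c1 was far more abundant, with 975, 1067, 1055, 1359 and 684 FPKM in TMAO replicates 1 to 5 and 854, 1160, 382 and 703 FPKM in LPS-ALI replicates 1 to 4. These groups overlapped, and the Ly6c1 relative difference was 0.65 (exact two-sided permutation p = 0.206), opposite in sign to that of Ly6c2. The ratio of Ly6c2 to Ly6c1 within a library does not depend on scaling and was formed after the values were seen. It was 0.0188, 0.0263, 0.0183, 0.0236 and 0.0348 in TMAO replicates 1 to 5, against 0.049, 0.0403, 0.0709 and 0.102 in LPS-ALI replicates 1 to 4. All 5 TMAO ratios lay below every LPS-ALI ratio, and the 2 highest belonged to the X-coded libraries. Of these, LPS-ALI replicate 3 had a Ly6c2 value among the TMAO ones and the lowest Ly6c1 of all libraries, 382 FPKM. How often ratios of other genes to Ly6c1 part the groups was not tested.

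**Figure D2:**
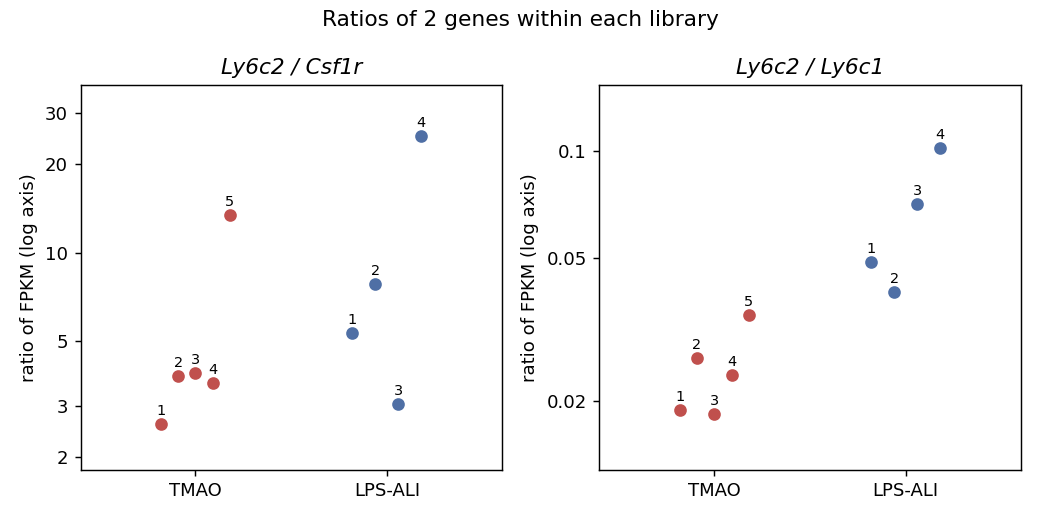
Ratios of FPKM of Ly6c2 to Csf1r (left) and to Ly6c1 (right) within each library, on log axes; points are mice with their replicate number, TMAO left of LPS-ALI in each panel. The Ly6c2 to Ly6c1 ratios of the groups do not overlap, with 0.0348 the highest in TMAO and 0.0403 the lowest in LPS-ALI lungs, whereas the ratios to Csf1r overlap. Ly6c2 alone overlaps too, and LPS-ALI replicate 3 has the lowest Ly6c1 of all libraries.

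Vcan encodes versican, a large chondroitin sulphate proteoglycan of the matrix that classical monocytes express strongly. The gene (ENSMUSG00000021614) lies on chromosome 13 from 89655312 to 89742509. Vcan had 1.02, 1.08, 1.91, 0.40 and 0.04 FPKM in TMAO replicates 1 to 5, against 3.37, 2.15, 2.37 and 3.75 FPKM in LPS-ALI replicates 1 to 4. Every TMAO lung lay below every LPS-ALI lung, as did 1.36% of all tested genes. The means were 0.89 ± 0.717 FPKM in TMAO (SD, n = 5) and 2.91 ± 0.772 FPKM in LPS-ALI lungs (SD, n = 4). The Vcan log2 difference was -1.12 ± 0.33 (SE), or -0.95 relative, with an unadjusted limma p of 0.00381 and an exact two-sided permutation p of 0.0159. Because Vcan is low, the added 1 FPKM shrinks its difference, which was -2.04 with a pseudocount of 0.1. With library weights it was -0.60. Fibroblasts also use Vcan: the summed FPKM of 5 fibroblast markers was 32.7 to 249.9 in TMAO and 110.6 to 154.6 in LPS-ALI lungs. None of these 5 markers was at 0 in any library, and their part in the Vcan values was not tested.

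Plac8 encodes a small cysteine-rich protein found in several kinds of leukocyte. The gene (ENSMUSG00000029322) lies on chromosome 5 from 100553725 to 100572245. Plac8 had 107.8, 155.3, 130.5, 131.6 and 113 FPKM in TMAO replicates 1 to 5, against 154.8, 176.3, 163.3 and 368 FPKM in LPS-ALI replicates 1 to 4. Only TMAO replicate 2 and LPS-ALI replicate 1 overlapped, by less than 1 FPKM, and LPS-ALI replicate 4 stood far above the rest. The means were 127.6 ± 18.7 FPKM in TMAO (SD, n = 5) and 215.6 ± 102 FPKM in LPS-ALI lungs (SD, n = 4). The Plac8 log2 difference was -0.67 ± 0.32 (SE), or -0.50 relative, with an unadjusted limma p of 0.0527 and an exact two-sided permutation p of 0.0159. It was -0.38 (relative -0.24) without LPS-ALI replicate 4 and -0.38 (relative -0.17) without both X-coded libraries.

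F13a1 encodes the A subunit of coagulation factor XIII, the transglutaminase that cross-links fibrin, made by monocytes, macrophages and the platelet lineage. The gene (ENSMUSG00000039109) lies on chromosome 13 from 36867178 to 37050244, and the antisense gene Gm30489 overlaps its exons, so without a known strand setting reads from the pair may not be told apart. F13a1 had 1.70, 2.02, 2.27, 1.96 and 0.37 FPKM in TMAO replicates 1 to 5, against 1.76, 1.69, 6.62 and 4.23 FPKM in LPS-ALI replicates 1 to 4. The 2 X-coded LPS-ALI libraries were high, and the other LPS-ALI libraries lay among the TMAO values. The means were 1.66 ± 0.751 FPKM in TMAO (SD, n = 5) and 3.58 ± 2.35 FPKM in LPS-ALI lungs (SD, n = 4). The F13a1 log2 difference was -0.70 ± 0.39 (SE), or -0.53 relative, with an unadjusted limma p of 0.0905 and an exact two-sided permutation p of 0.214. Without the X-coded libraries it was -0.09 and the relative difference turned to 0.12, and with library weights it was -0.02. Without LPS-ALI replicate 3 it was -0.41, and the relative difference -0.18. The summed FPKM of 6 platelet markers was 18.6 to 27.4 in TMAO and 31.3 to 75.2 in LPS-ALI lungs, with no overlap. Among them Pf4, the platelet factor 4 gene, had a TMAO mean at 0.474 of the LPS-ALI mean, while Itga2b, the platelet integrin gene, and Gp1ba were at 0 in TMAO replicate 5. The part of platelet RNA in F13a1 was not tested.

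Fcgr1 encodes the high-affinity receptor for IgG (CD64), used with other markers to tell macrophages and monocyte-derived cells from dendritic cells. The gene (ENSMUSG00000015947) lies on chromosome 3 from 96282909 to 96293969. Fcgr1 had 1.19, 1.87, 3.52, 2.85 and 1.38 FPKM in TMAO replicates 1 to 5, against 4.67, 2.75, 3.01 and 8.41 FPKM in LPS-ALI replicates 1 to 4. TMAO replicates 3 and 4 lay within the LPS-ALI range and the other 3 below it. The means were 2.16 ± 0.995 FPKM in TMAO (SD, n = 5) and 4.71 ± 2.61 FPKM in LPS-ALI lungs (SD, n = 4). The Fcgr1 log2 difference was -0.81 ± 0.37 (SE), or -0.64 relative, with an unadjusted limma p of 0.0450 and an exact two-sided permutation p of 0.0635. It was -0.53 (relative -0.40) without LPS-ALI replicate 4, and -0.60 (relative -0.39) without the X-coded libraries. The unadjusted limma p of Fcgr1 was above 0.05 without LPS-ALI replicate 1 or 4, or TMAO replicate 1, 2 or 5, each left out alone. The unadjusted call was lost too with both X-coded libraries dropped, median-of-ratios scaling, quantile normalization, library weights or no filter.

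**Figure D3:**
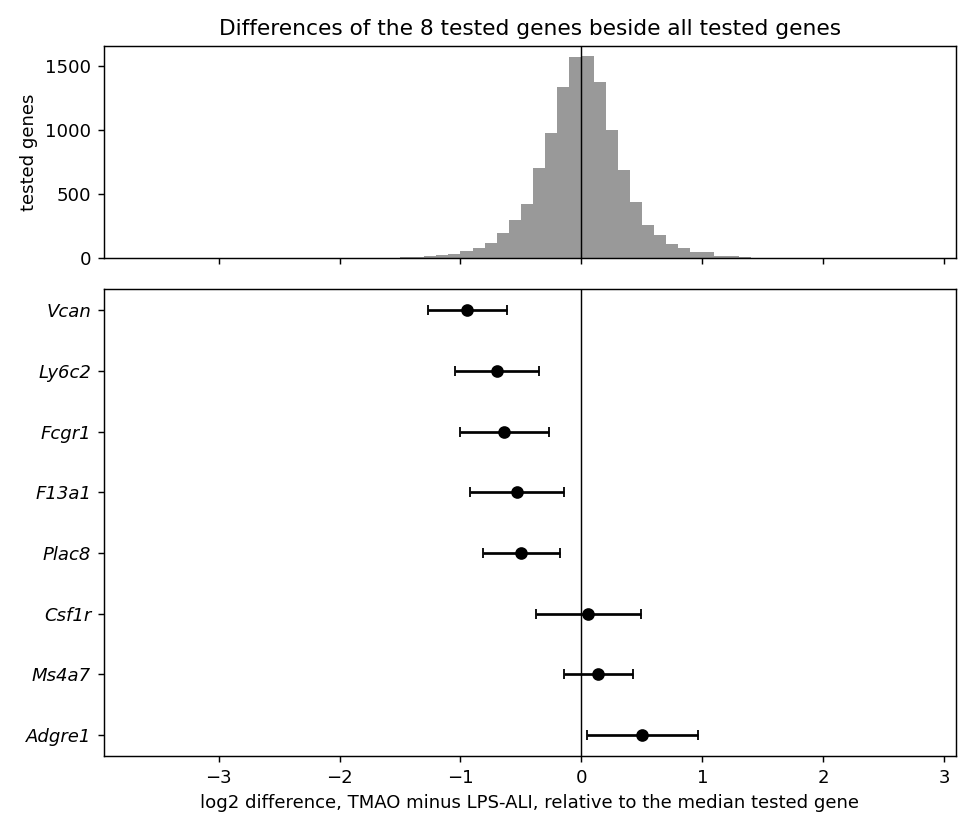
Log2 difference, TMAO minus LPS-ALI, relative to the median tested gene: the histogram above counts all 11817 tested genes, and the points below give the 8 tested members with limma's SE. Vcan is the lowest at -0.95 and Adgre1 the highest at 0.50, and Csf1r and Ms4a7 lie near 0.

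Csf1r encodes the receptor for the growth factors CSF1 and IL-34, on which most macrophages and monocytes depend. The gene (ENSMUSG00000024621) lies on chromosome 18 from 61100598 to 61132149, and its exons overlap those of Hmgxb3 on the opposite strand. The strand setting of the counting is not given, so reads from the pair may not be told apart. Csf1r had 7.08, 7.43, 4.97, 9.00 and 1.78 FPKM in TMAO replicates 1 to 5, against 7.87, 6.01, 8.94 and 2.88 FPKM in LPS-ALI replicates 1 to 4. The groups overlapped almost wholly, and the lowest value of each group was in the library that stood apart. The means were 6.05 ± 2.79 FPKM in TMAO (SD, n = 5) and 6.43 ± 2.66 FPKM in LPS-ALI lungs (SD, n = 4). The Csf1r log2 difference was -0.11 ± 0.43 (SE), or 0.06 relative, with an unadjusted limma p of 0.796 and an exact two-sided permutation p of 0.786. It was -0.40 (relative -0.27) without LPS-ALI replicate 4 and 0.19 (relative 0.14) without TMAO replicate 5. The genes of its ligands also overlapped between the groups. Csf1 averaged 16.9 FPKM in TMAO and 16.6 FPKM in LPS-ALI lungs, and Il34 averaged 5.66 FPKM in TMAO and 5.67 FPKM in LPS-ALI lungs.

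The ratio of Ly6c2 to Csf1r within a library, formed after the values were seen, sets the classical monocyte antigen against the receptor shared by the lineage. It was 2.59, 3.78, 3.89, 3.57 and 13.4 in TMAO replicates 1 to 5, against 5.32, 7.78, 3.03 and 24.9 in LPS-ALI replicates 1 to 4. The groups overlapped, and the highest ratio of each group was in the library that stood apart, TMAO replicate 5 and LPS-ALI replicate 4.

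Adgre1 encodes the adhesion receptor F4/80, the classic surface marker of mouse macrophages. The gene (ENSMUSG00000004730) lies on chromosome 17 from 57358691 to 57483527. Adgre1 had 6.30, 8.99, 4.87, 10.9 and 2.53 FPKM in TMAO replicates 1 to 5, against 8.45, 7.04, 4.04 and 1.61 FPKM in LPS-ALI replicates 1 to 4. The groups overlapped, and the X-coded libraries were the lowest of the LPS-ALI lungs. The means were 6.72 ± 3.31 FPKM in TMAO (SD, n = 5) and 5.29 ± 3.06 FPKM in LPS-ALI lungs (SD, n = 4). The Adgre1 log2 difference was 0.34 ± 0.46 (SE), or 0.50 relative, with an unadjusted limma p of 0.475 and an exact two-sided permutation p of 0.516. It turned to -0.30 (relative -0.08) without the X-coded libraries, to -0.03 (relative 0.10) without LPS-ALI replicate 4, and to -0.01 (relative 0.02) with library weights.

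Ms4a7 encodes a membrane-spanning protein of the MS4A family found in mature macrophages. The gene (ENSMUSG00000024672) lies on chromosome 19 from 11321039 to 11336146. Ms4a7 had 0.65, 1.89, 0.91, 2.03 and 1.93 FPKM in TMAO replicates 1 to 5, against 1.75, 1.58, 1.25 and 1.29 FPKM in LPS-ALI replicates 1 to 4. The TMAO lungs lay on both sides of the LPS-ALI range, with 3 above it and 2 below. The Ms4a7 log2 difference was -0.03 ± 0.28 (SE), or 0.14 relative, with an unadjusted limma p of 0.916 and an exact two-sided permutation p of 0.889.

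Cx3cr1 encodes the receptor for the chemokine fractalkine, high on patrolling monocytes and on some interstitial macrophages. The gene (ENSMUSG00000052336) lies on chromosome 9 from 119901616 to 120069879, and the antisense gene Gm33858 overlaps its exons. Cx3cr1 had 0.37, 0.66, 0.23, 0.36 and 0.62 FPKM in TMAO replicates 1 to 5, against 0.55, 0.61, 0.58 and 0.03 FPKM in LPS-ALI replicates 1 to 4. All libraries but LPS-ALI replicate 4 lay between 0.23 and 0.66 FPKM, and the gene was too low to be tested across all genes. Its exact two-sided permutation p was 0.873. Its ligand gene Cx3cl1 averaged 2.64 FPKM in TMAO and 4.57 FPKM in LPS-ALI lungs, with 9.46 FPKM in LPS-ALI replicate 4.

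The members did not move as a single block across libraries. LPS-ALI replicate 4 held the highest value of 4 genes (Ly6c2, Vcan, Plac8 and Fcgr1) and the lowest of 2 (Cx3cr1 and Adgre1). TMAO replicate 4 was the highest for Csf1r, Adgre1 and Ms4a7. TMAO replicate 5 was the lowest for Vcan, F13a1 and Csf1r, and TMAO replicate 1 for Ly6c2, Plac8, Fcgr1 and Ms4a7. Median-of-ratios scaling divides each library by a size factor. Of the 9 libraries, TMAO replicate 5 had the smallest factor, 0.387, and TMAO replicate 4 the largest. The highs and lows given here are of FPKM without that scaling. The part of library scale in them was not tested. The 5 tested genes outside the set with the profile nearest to the mean profile of the 8 tested members over the 9 libraries were Ndufb7, Mob3c, Ndufb8, Ssbp1 and Cyp1b1. Likeness was the root mean square distance of centred log2 values, which was 0.06 to 0.09 log2 units for these genes. The members themselves lay from 0.35 (Plac8) to 0.71 (Adgre1) from their own mean profile, and the median of all other tested genes was 0.43. The 5 nearest genes were picked for their small distance. Setting the members beside them therefore cannot show whether the members move together.

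**Figure D4:**
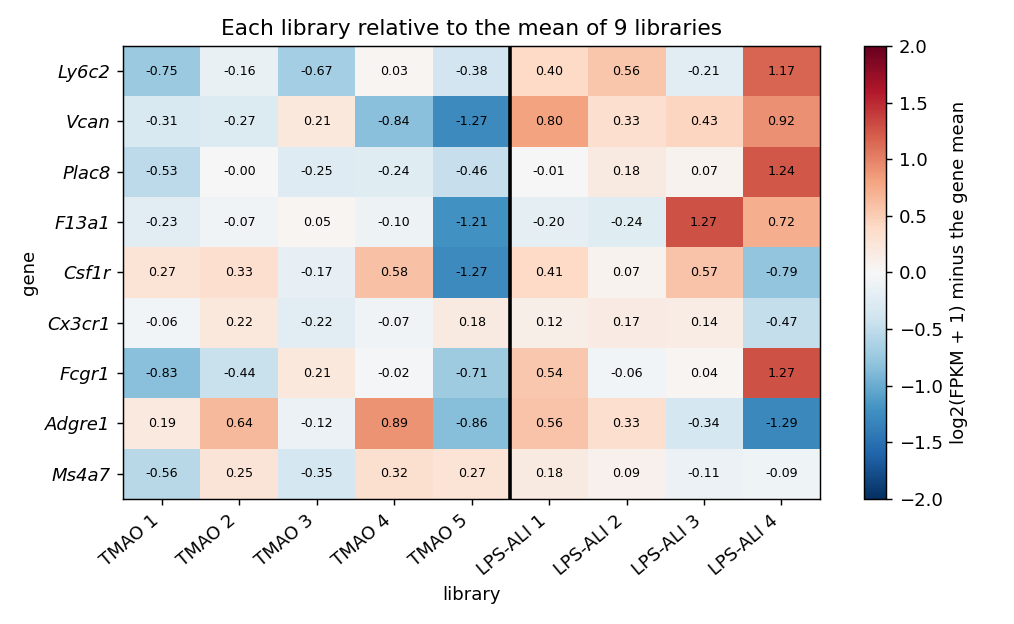
Log2(FPKM + 1) of each gene in each library minus the gene's mean over 9 libraries, TMAO libraries at left and LPS-ALI libraries at right of the black line; red is above and blue below the mean. LPS-ALI replicate 4 is at 1.17 for Ly6c2 and 1.24 for Plac8 but at -1.29 for Adgre1, and TMAO replicate 5 is at -1.27 for Vcan and for Csf1r.

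Other genes of the lineage, listed by role, passed the adjusted threshold in no case, with a limma adjusted p of 0.998 for each one tested. The p-values given for them are exact, two-sided and unadjusted. Of 9 further classical monocyte genes 8 were tested, and 6 lay below the median gene (median relative difference -0.48), against 50% of all tested genes. Among the tested ones the smallest limma p belonged to Ms4a4c, Ms4a6c, Cd14 and Chil3. Cd14, the LPS co-receptor, averaged 57.4 FPKM in TMAO and 93.2 FPKM in LPS-ALI lungs (exact permutation p = 0.103). Ccr2, the receptor that brings classical monocytes out of the marrow, failed the filter with 0.18 to 0.67 FPKM in TMAO and 0.58 to 2.33 FPKM in LPS-ALI lungs (exact permutation p = 0.0317). The X-coded LPS-ALI replicates 3 and 4 had 2.33 and 1.37 FPKM of Ccr2. LPS-ALI replicates 1 and 2 had 0.75 and 0.58 FPKM, close to the higher TMAO values. Lyz2, the lysozyme gene of myeloid cells, had the opposite sign, with a relative difference of 0.43 and its lowest value, 444.6 FPKM, in LPS-ALI replicate 4.

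Of 9 genes of non-classical monocytes all were tested and 6 lay below the median gene (median relative difference -0.15). Nr4a1, the nuclear receptor these monocytes need and also an immediate early gene, had the smallest p, with 25.5 ± 16.8 FPKM in TMAO (SD, n = 5) and 54.7 ± 10.6 FPKM in LPS-ALI lungs (SD, n = 4). Its relative difference was -1.19 (exact permutation p = 0.0476). Fcgr4, the Fc receptor of these cells, had a relative difference of -0.47, Spn -0.39 and Ace, which endothelium also expresses, 1.00.

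Of 14 further interstitial macrophage genes 13 were tested, with 7 below and 6 above the median gene (median relative difference -0.03). Cd68, a lysosomal protein of all macrophages, was lower in every TMAO lung, with 12.9 ± 3.04 FPKM (SD, n = 5) in TMAO and 20.6 ± 2.81 FPKM (SD, n = 4) in LPS-ALI lungs, a relative difference of -0.49 (exact permutation p = 0.0159). The scavenger receptor gene Stab1 had a relative difference of -0.61 and the selenoprotein gene Selenop 0.60. The complement genes C1qa, C1qb and C1qc, which interstitial macrophages express strongly, had relative differences of 0.11, -0.16 and -0.03. Trem2 failed the filter and was listed at 0 in TMAO replicate 5 and LPS-ALI replicate 1.

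Of 8 ligands and transcription factors of the lineage all were tested and 6 lay below the median gene (median relative difference -0.23). Irf8, a factor for monocyte and dendritic cell fate, averaged 3.57 ± 1.80 FPKM in TMAO (SD, n = 5) and 10.6 ± 9.90 FPKM in LPS-ALI lungs (SD, n = 4), with 25.4 FPKM in LPS-ALI replicate 4 (exact permutation p = 0.0317). Cebpb, induced in myeloid cells by inflammation, averaged 106.6 ± 39.5 FPKM in TMAO (SD, n = 5) and 175.9 ± 31.1 FPKM in LPS-ALI lungs (SD, n = 4), with an exact permutation p of 0.0397. Spi1, which encodes PU.1, averaged 59.9 ± 13.6 FPKM in TMAO (SD, n = 5) and 82.8 ± 17.1 FPKM in LPS-ALI lungs (SD, n = 4), with an exact permutation p of 0.0714.

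Markers of other cells that use some of these genes are set beside them, and none passed the adjusted threshold by limma. T and NK cell markers, of which 4 of 8 were tested, had a median relative difference of -0.66, and their summed FPKM was 9.35 to 17.9 in TMAO and 24.4 to 58.8 in LPS-ALI lungs, again with no overlap. Gzma, the granzyme A gene, made up most of these sums, with 6.92 to 12.99 FPKM in TMAO and 18.1 to 39.5 FPKM in LPS-ALI lungs. The groups overlapped for Cd3d, Cd3e, Cd3g, Nkg7, Ncr1 and Trac, and did not for Klrb1c. Of these 8, Cd3d, Nkg7 and Ncr1 were at 0 in a TMAO library and Trac in an LPS-ALI library. Platelet markers (4 of 6 tested) had a median relative difference of -0.69. Neutrophil markers (10 of 10 tested) had -0.01, and their summed FPKM was 7864 to 14790 in TMAO and 7863 to 21140 in LPS-ALI lungs, with no marker at 0. S100a8 and S100a9 made up most of these sums. Of the neutrophil markers 5 lay below the median gene and 5 above it. Ngp was at -1.13 and Ly6g at -0.67 relative, against 0.39 for Cxcr2 and 0.34 for Retnlg. Alveolar macrophage markers (8 of 9 tested) had -0.37, with sums of 40.1 to 81.0 in TMAO and 49.3 to 206.9 in LPS-ALI lungs, and Fabp1 was at 0 in TMAO replicate 5. Dendritic cell markers (3 of 6 tested) had 0.65, with sums of 6.81 to 35.3 in TMAO and 6.76 to 26.6 in LPS-ALI lungs. Xcr1 and Cd209a were at or near 0 throughout, with Flt3 at 0 in TMAO replicate 5. The tested dendritic cell markers were Clec9a, Zbtb46 and Ccr7, with relative differences of 1.13, 0.65 and 0.06. Clec9a and Zbtb46 were lowest in LPS-ALI replicate 4, at 0.2 and 2.05 FPKM, as was the endothelial gene Tek. For the B cell marker Cd79b, the only tested one of 5, the relative difference was -0.25, with sums of 1.51 to 3.75 in TMAO and 3.85 to 5.78 in LPS-ALI lungs, which do not overlap; Cd79a and Ms4a1 were at 0 in TMAO replicate 5. Endothelial (7 of 7 tested), fibroblast (5 of 5) and alveolar type 2 markers (6 of 6) had median relative differences of 0.53, 0.49 and 0.31. Sums of endothelial markers were 805.5 to 2188 in TMAO and 721 to 1676 in LPS-ALI lungs, and those of alveolar type 2 markers 4727 to 10250 in TMAO and 1051 to 13770 in LPS-ALI lungs, with no marker at 0. The part of any of these cells in the member values was not tested.

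**Figure D5:**
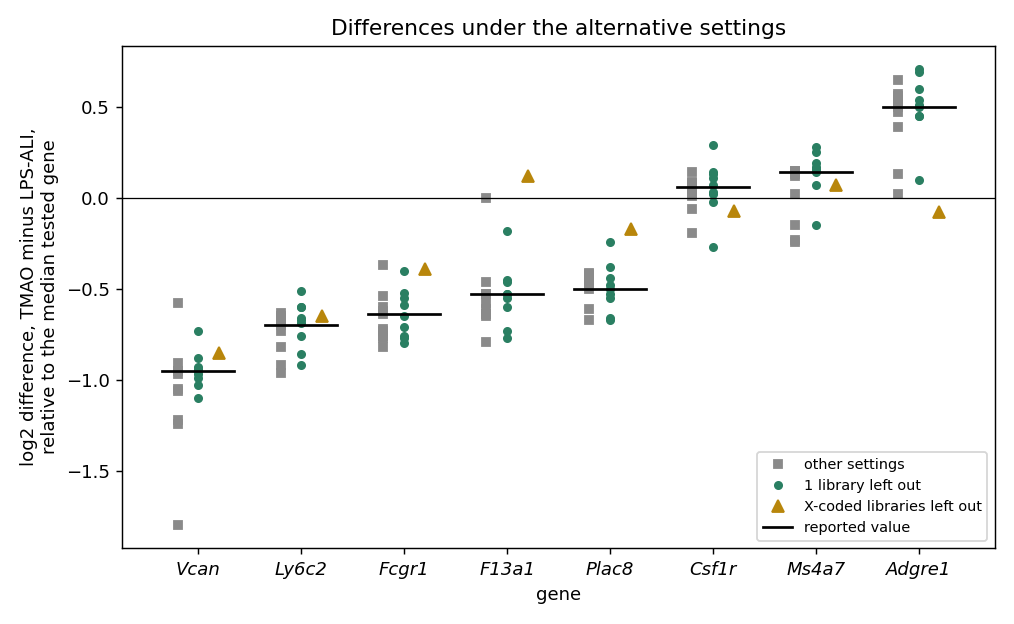
Relative log2 difference, TMAO minus LPS-ALI, of the 8 tested members: the black bar is the reported value, circles leave out 1 library, triangles leave out both X-coded libraries and squares are the other alternative settings. Vcan, Ly6c2, Fcgr1 and Plac8 stay below 0 in all of them, whereas F13a1 reaches 0.12 and Adgre1 -0.08 without the X-coded libraries.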

How the data were processed

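RNA sequencing of 9 mouse lungs was analysed from the deposited table. The submitters' processing notes name mm10 and list fastp, featureCounts, HISAT2 and SAMtools. The sources used here do not give their versions, the annotation, the strand setting or the gene lengths. The authors deposited FPKM values rounded to 2 decimals, 1 column per library. Groups and mouse numbers come from the labels' titles. Of 52381 gene IDs, 52073 were found in GENCODE M21 (GRCm38, which is mm10), and promoter windows come from RefSeq.

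FPKM values are not counts, so log2(FPKM + 1) was tested by two-sided limma-trend (limma 3.58.1, R 4.3.3) over the 11817 genes that reached 1 FPKM in 4 or more libraries, with Benjamini-Hochberg adjustment at 0.05. Differences are TMAO minus LPS-ALI. Exact permutation p values cover all 126 assignments of the group labels (smallest 0.00794) and are unadjusted over the 9 genes. The pipeline was tested on simulated data. No pair of libraries shared more than 63 identical values among the tested genes. The members, gene lists, tests and alternatives were chosen with earlier results of these data known. The genes named are all members, up to 4 tested genes with the smallest limma p from each list of the lineage, Ly6c1 and the 5 nearest profiles. Csf1, Il34, Ccr2, Lyz2, Lyve1, Trem2, C1qa, C1qb, C1qc and the markers of other cells were named after their values were seen. Some listed genes are not reported here. A limma p sets the group difference against the spread of these mice within groups. A permutation p sets it against the differences under the other assignments of the labels. Neither takes the library code into account, and the X-coded libraries are all LPS-ALI. Alternatives changed the pseudocount, filter, scaling, variance model, mouse-number block and libraries used. Figures were made with Python 3.11.15 and matplotlib 3.10.9.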

Additional observations from a re-analysis of the deposited data

Results flagged for a closer look

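Among the 18 sets of a gene and a group, 2 held a library far from the others of its group, and chance marks about 1 in 20 sets. Both lie in LPS-ALI replicate 4. Its Plac8 was 368 FPKM, against 154.8 to 176.3 FPKM in the other LPS-ALI lungs, a gap of 0.899 of the group's range. Its Cx3cr1 was 0.03 FPKM, against 0.55 to 0.61 FPKM in the other LPS-ALI lungs, a gap of 0.897 of the range.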

How the results depend on the processing

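Over the 20 or 21 alternatives that kept each gene, the limma differences of Ly6c2 (-1.10 to -0.64), Vcan (-2.04 to -0.60), Plac8 (-0.79 to -0.34), Fcgr1 (-1.06 to -0.40) and F13a1 (-1.02 to -0.02) stayed below 0. The count of genes past the adjusted threshold, 0 in the reported fit, was 51 with library weights and 0 to 3 when 1 library was left out (1 without LPS-ALI replicate 3, 3 without TMAO replicate 4). Of the members, 1 (Ly6c2) passed with library weights and 0 under the other 20 alternatives. The median member difference of -0.68 was -0.39 with a mean FPKM of at least 5, which keeps 4 members, -0.33 with library weights, -0.34 without the X-coded libraries and -0.35 without both LPS-ALI replicate 4 and TMAO replicate 5. It was -0.78 to -0.47 when 1 library was left out, and relative to the median gene, reported as -0.51, it ran from -0.66 to -0.13 over all 21, with -0.33 without LPS-ALI replicate 4, -0.19 with a mean FPKM of at least 5 and -0.13 without the X-coded libraries. Genes with small differences changed sign, and apart from these constructions the cause was not tested. Csf1r (-0.11) was 0.04 with median-of-ratios scaling, 0.02 with quantile normalization and 0.19 with the replicate block, and -0.40 to 0.19 when 1 library was left out. Ms4a7 (-0.03) was 0.15, 0.13 and 0.02 with median-of-ratios scaling, quantile normalization and removal of mitochondrial genes, and -0.11 to 0.11 when 1 library was left out. Adgre1 (0.34) was -0.01 with library weights, -0.30 without the X-coded libraries and -0.03 to 0.59 when 1 library was left out. The median tested gene shifted by -0.17 in the reported fit, by -0.01 under median-of-ratios scaling and by 0.05 without TMAO replicate 5. The split of genes at an unadjusted limma p under 0.05, 50 higher and 346 lower in TMAO, was 362 higher and 437 lower under median-of-ratios scaling, 441 and 450 under quantile normalization, 581 and 1053 with library weights, 505 and 355 without TMAO replicate 5, and 522 and 346 without both libraries that stood apart. The labels state no pairing of mice by number. Deviations of same-numbered mice correlated at 0.06, -0.01, -0.03 and -0.13. No LPS-ALI mouse correlated best with the TMAO mouse of its own number. With so few mice these correlations cannot exclude a pairing. The replicate block, which drops TMAO replicate 5 as it has no partner, gave 0 calls, 0 member calls and a median member difference of -0.55. Read depth is unknown, so the precision of Cx3cr1, Ms4a7 and Vcan, the lowest genes, cannot be stated.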
